A study of Rattus norvegicus with 8 samples.

Results

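The Itm2 integral membrane proteins form a family of 3 genes, Itm2a, Itm2b and Itm2c. Of the 35608 distinct gene names on the array, these 3 were taken, and they were measured by 4 of its 41012 probes, 1 probe each for Itm2a and Itm2b and 2 for Itm2c. The family was chosen by the response to 10 µM MEHP, since Itm2a was among the probes with the lowest ratios there. Every value of the family at that dose is therefore given as a description and carries no test. MEHP, monoethylhexylphthalate, is the active metabolite of the plasticizer DEHP. Whole testes of Sprague-Dawley rat fetuses, explanted between gestational days 14 and 15, were cultured for 72 h with vehicle (DMSO), 1 µM MEHP or 10 µM MEHP. The 10 µM group held 3 testes from different litters, and the 1 µM group held 1 testis. Each MEHP-treated testis was set against the same reference, RNA pooled from 3 vehicle-treated testes, on 2 hybridizations with the dyes swapped, which gave 8 two-colour arrays. The 2 hybridizations of a testis share its RNA and count as 1 replicate. The pool counts as 1 control sample, so the spread among vehicle-treated testes does not enter any value below.

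ITM2 proteins cross the membrane once and carry a BRICHOS domain, a fold that occurs in a small set of secreted or membrane-bound precursor proteins and that can hold back aggregation of peptides. Furin and related proprotein convertases trim the C-terminal end of Itm2b, ADAM10 and SPPL2 proteases cut it further, and it binds the amyloid precursor protein App and limits its cleavage. Inherited variants of the human ITM2B gene that lengthen the released peptide cause the British and Danish familial dementias. Itm2c is best known from brain, whereas Itm2a was described in developing cartilage and muscle and in activated T cells.

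The family members differ in the DNA before their start sites. The 3 sequences below, from RefSeq on build GRCr8, are shown so that the promoters of the gene with the largest decrease and of its relatives can be compared. Each holds the 250 bases that precede the annotated start, 5′ to 3′ on the strand of the gene. They come from chrX:76565145-76565394 (minus strand) for Itm2a, chr15:54978456-54978705 (minus strand) for Itm2b and chr9:93993672-93993921 (plus strand) for Itm2c. Capitals mark matches on either strand to a GC box, a CCAAT box or the core of the cAMP response element, whose letters are given after the sequences.
Itm2a: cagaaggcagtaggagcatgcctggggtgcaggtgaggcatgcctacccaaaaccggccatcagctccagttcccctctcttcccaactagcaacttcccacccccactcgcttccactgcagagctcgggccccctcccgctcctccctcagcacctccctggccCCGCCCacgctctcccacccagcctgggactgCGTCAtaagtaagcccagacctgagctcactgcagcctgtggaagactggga
Itm2b: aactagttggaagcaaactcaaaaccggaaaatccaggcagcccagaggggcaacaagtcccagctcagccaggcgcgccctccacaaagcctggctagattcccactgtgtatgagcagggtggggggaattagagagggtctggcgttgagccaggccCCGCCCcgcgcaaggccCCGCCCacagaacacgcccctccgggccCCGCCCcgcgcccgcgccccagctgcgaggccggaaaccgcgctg
Itm2c: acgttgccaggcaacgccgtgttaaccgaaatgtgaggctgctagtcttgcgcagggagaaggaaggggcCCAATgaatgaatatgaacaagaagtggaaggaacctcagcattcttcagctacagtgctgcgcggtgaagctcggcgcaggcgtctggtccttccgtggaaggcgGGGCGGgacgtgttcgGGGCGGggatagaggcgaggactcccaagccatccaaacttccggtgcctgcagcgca

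The Itm2a promoter held 1 GC box (GGGCGG), 84 bases before the start, and 1 cAMP core (TGACG), 52 bases before it, both on the opposite strand. The Itm2b promoter held 3 GC boxes, likewise on the opposite strand. That of Itm2c held 2 GC boxes and 1 CCAAT box, named for its letters, all on the strand of the gene. CG dinucleotides numbered 7 for Itm2a and 19 for each of the other genes, at a G and C content of 64% for Itm2a, 67.2% for Itm2b and 59.6% for Itm2c, against a median of 51.2% over 33469 promoters. Among all promoters of this length, 30.5% held a GC box, 34% a CCAAT box and 18.2% the cAMP core. A TATA box (TATAAA, in 12.9% of promoters), the site of the steroidogenic factor SF-1 (AAGGTCA, 3.99%) and a GATA site (AGATAA, 10.3%) were searched on both strands and had no match in these windows. The motifs searched do not overlap one another in these windows. A match is a run of letters and was not examined for binding.

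One treated testis stood apart. On testis 2 at 10 µM, 0.249% of the probe spots of the first hybridization and 1.54% of the repeat passed the scanner's limit for a signal well above background (detected, below) in the MEHP channel, against 7.80% to 26.4% on the arrays of testes 1 and 3. The vehicle channel was detected at 9.23% to 31.9% of spots over the 6 arrays. The median ratio of the 9913 tested probes was 0.090 on the log2 scale in testis 1, −1.13 in testis 2 and −0.20 in testis 3. Means of the family and of the genes named from the lists at 10 µM are therefore given with and without testis 2, and family values relative to each array's median where this changes a direction. Testes 1 and 2 lay on 1 slide, testis 3 and the 1 µM testis on the other. The labels write Cy3 for the MEHP channel of each array, although a dye swap is described in the methods. Across 4086 spots, the red over green ratios within a testis ran opposite between the first hybridization and the second (r of −0.82 to −0.48), as swapped dyes give, and those of like orientation from different testes had r of 0.041 to 0.85. The channel taken as the pool was the more alike between arrays of different testes, with r of 0.95 to 1.00 against 0.63 to 0.97 for the channel taken as MEHP, and the direction of the ratios rests on this and on the order of the hybridizations.

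In testis markers, 6 of 8 Leydig cell genes and 7 of 8 Sertoli cell genes were detected in the vehicle pool on at least 1 array, whereas the same held for 3 of 7 germ cell genes, 3 of 5 peritubular genes, 1 of 7 endothelial genes and 2 of 7 blood genes on the array. Markers of the labelled tissue were thus present, although Lhcgr and Nr5a1 of Leydig cells and Fshr of Sertoli cells were not detected on any array. In whole testes, fewer cells of a type and less RNA per cell cannot be told apart.

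Itm2a transcript was lower than in the vehicle pool on all 8 arrays. In testis 1 at 10 µM the first hybridization gave a log2 ratio of MEHP over vehicle of −1.22, and the repeat gave −1.29. The ratios were −3.12 and −2.82 for testis 2, and −3.59 and −3.58 for testis 3. Testis 3 thus had the deepest decrease, and the 2 hybridizations of a testis differed by at most 0.30, less than the testes differed from one another. The testis values were −1.26, −2.97 and −3.59, with a mean of −2.60 ± 1.21 (SD, n = 3). Without testis 2 the mean was −2.42, and it was −2.15 ± 1.03 (SD, n = 3) after centring of the arrays on their medians. The size depends on the background treatment, as the mean was −0.95 with normexp background correction and loess and −0.87 with loess alone. By testis these gave −0.71, −0.25 and −1.88, and −0.75, −0.15 and −1.69, so that testis 2 then had the mildest decrease and testis 3 still the deepest.

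The signals behind these ratios show on which arrays both channels were detected. The vehicle signal of the Itm2a probe was detected on all 8 arrays, with processed signals (background-subtracted and dye-normalized, in arbitrary units) from 1381 to 6899. The MEHP signal was detected on 3 of the 6 arrays at 10 µM, both of testis 1 and the repeat of testis 3. In testis 1 the MEHP signals were 1380 and 1273 against vehicle signals of 3217 and 3115. In testis 3 they were 267 and 462 against 3225 and 5526. In testis 2 they were 794 and 196 against 6899 and 1381, and the scanner software had put an estimate in place of the measured MEHP signal on both arrays. With the MEHP signal of testis 2 set to the lowest signal called well above background on the same arrays, the decrease was 3.45-fold. That is not a lower limit, since testis 2 gave log2 ratios of −0.25 with normexp and −0.15 with loess alone.

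**Figure D1:**
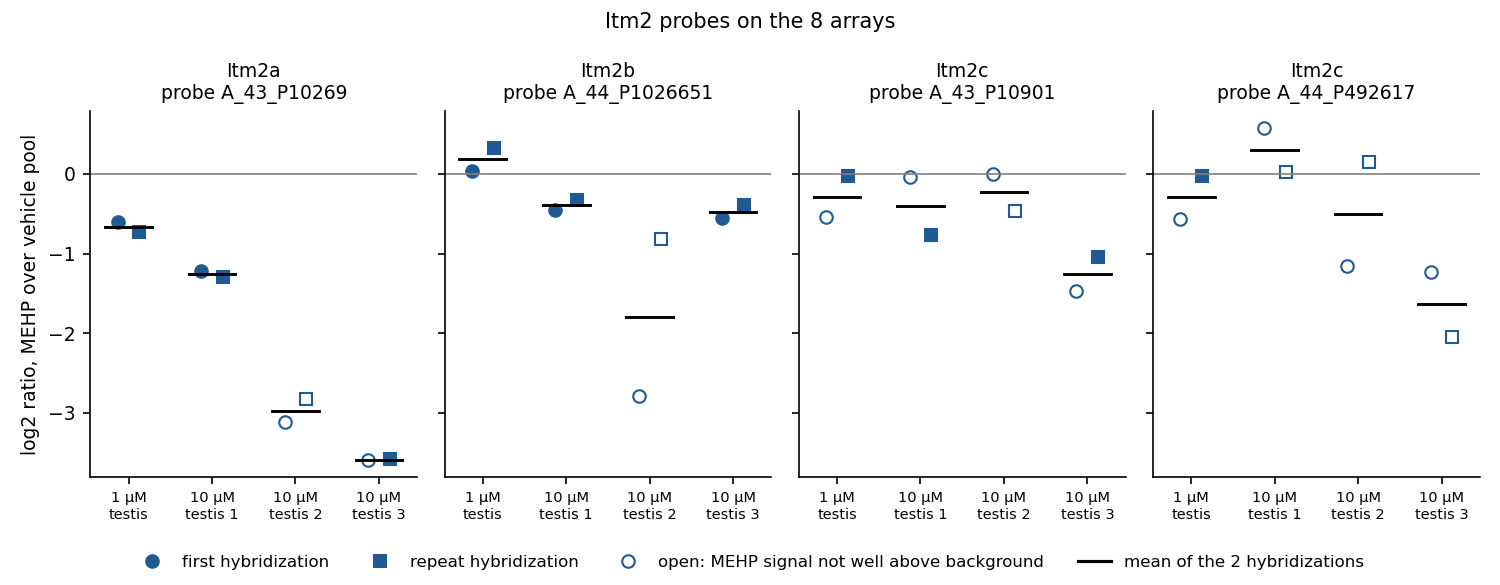
Log2 ratio of MEHP over the vehicle pool (y axis) for the 4 Itm2 probes in the 1 µM testis and the 3 testes at 10 µM (x axis). Circles are first hybridizations, squares repeats, open symbols have an MEHP signal that was not well above background, and black lines are the mean of the 2 hybridizations. Itm2a lies below 0 on all 8 arrays, from −0.60 to −3.59, and outside testis 3 the brighter Itm2c probe lies between −0.77 and 0.0045 and the second between −1.15 and 0.58.

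Among the 9913 tested probes, Itm2a had the 5th lowest mean at 10 µM. The probes on either side of it in that order had means of −2.66 and −2.59, the latter being Rbbp7, so it lies within a continuous tail. It lay below 0 in all 3 testes, as did 36.2% of the tested probes, and its place within a single testis varied. In testis 1, 3.85% of the probes had a ratio no higher than that of Itm2a, in testis 2 1.44% and in testis 3 0.040%, where it was the 4th lowest. The limma fit of the 3 testes called 37 probes higher (0.373%) and 185 lower (1.87%) at an adjusted p of 0.05, and Itm2a was chosen by this contrast. After centring of the arrays on their medians the split was 55 higher and 51 lower.

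At 1 µM the decrease of Itm2a was smaller in the deposited ratios. The first hybridization gave −0.60 and the repeat −0.73, with an error of 0.24 and 0.23 from the scanner's error model, and both channels were detected on both arrays. The mean was −0.67, a 1.59-fold decrease, from 1 testis and thus without a replicate check. Both hybridizations passed 1.5-fold, as did 390 of the 13174 probes tested at this dose in that direction (2.96%). By this mean, 7.69% of those probes were at or below Itm2a. As deposited, the ratios at the 2 doses did not overlap, the smallest decrease at 10 µM being −1.22. Relative to the array medians they did, at −1.03 for the repeat at 1 µM and −1.02 for the first hybridization of testis 1 at 10 µM, and with normexp the value of testis 2, −0.25, lay above that at 1 µM, −0.31. On the slide that holds both testis 3 and the 1 µM testis, the difference between doses was −2.92. The difference between doses was not tested.

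**Figure D2:**
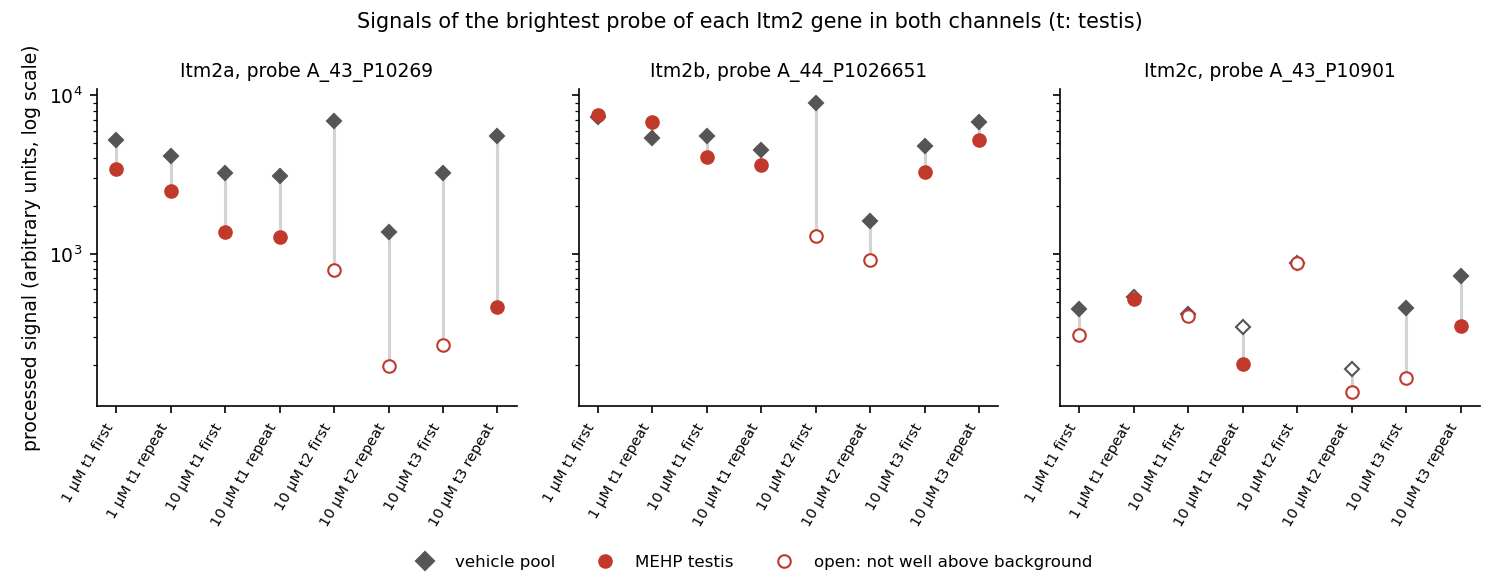
Processed signal on a log axis (arbitrary units) of the brightest probe of each Itm2 gene on the 8 arrays, with diamonds for the vehicle pool, circles for the MEHP testis and open symbols for signals not well above background. The channels separate most for Itm2a in testes 2 and 3, and lie close together for Itm2b outside testis 2.

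Itm2b, which limits App cleavage, showed a small shift at 10 µM that was large in testis 2 alone. Its log2 ratios were −0.45 and −0.33 in testis 1, −2.78 and −0.81 in testis 2, and −0.55 and −0.39 in testis 3. The ratios of testes 1 and 3 thus all lay between −0.55 and −0.33. The pair from testis 2 disagreed by 1.97, and its MEHP signals, 1293 and 914, were not detected. The mean was −0.89 ± 0.79 (SD, n = 3), and −0.43 without testis 2. Relative to each array's median it was −0.49, −0.61 and −0.20 by testis, a mean of −0.43 ± 0.21 (SD, n = 3). With normexp the mean was −0.30 and testis 2 lay at −0.18. With loess alone these values were −0.24 and −0.052. The vehicle signal was detected on all 8 arrays and the MEHP signal on 4 of the 6 at 10 µM.

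At 1 µM the Itm2b ratios were 0.041 for the first hybridization and 0.33 for the repeat, a mean of 0.18, with errors of 0.17 and 0.20 from the scanner's error model and both channels detected on both arrays. With normexp the mean was 0.022. Itm2b was the only family gene whose mean lay above 0 at 1 µM, and all 6 of its hybridizations at 10 µM lay below 0. Relative to the array median, the first hybridization of testis 3 lay at 0.17. Of the 9913 tested probes, 36.2% lay below 0 in all 3 testes. The 2 Itm2b hybridizations at 1 µM differed by more than their mean. Of the tested probes, 64.0% were at or below Itm2b at 1 µM and 24.8% by its mean at 10 µM.

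Itm2c gave the least certain values, since both of its probes were dim. The brighter probe, A_43_P10901, had log2 ratios of −0.035 and −0.77 in testis 1, 0.0045 and −0.47 in testis 2, and −1.47 and −1.05 in testis 3. These averaged −0.63 ± 0.55 (SD, n = 3), or −0.83 without testis 2, and the MEHP channel was detected on 2 of 6 arrays. Only in testis 3 were both hybridizations more than 1 log2 unit below 0. Relative to each array's median, testis 2 turned to 0.96 while testes 1 and 3 stayed at −0.51 and −0.98, so the direction in testis 2 depends on the centring.

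The second Itm2c probe, A_44_P492617, was not tested at 10 µM because it was detected, in the vehicle channel alone, on 2 of the 6 arrays. Its ratios were 0.58 and 0.026 in testis 1, −1.15 and 0.15 in testis 2, and −1.23 and −2.05 in testis 3. The probes thus disagreed in sign in testis 1 and both had their lowest value in testis 3. At 1 µM the brighter probe gave −0.55 and −0.027, and the second gave −0.56 and −0.026. For each probe, the MEHP signal at 1 µM was detected on 1 of 2 arrays.

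Within the family, Itm2a had a lower ratio than Itm2b on all 8 arrays, by 0.34 to 3.19 log2 units. By testis at 10 µM the difference of Itm2a minus Itm2b was −0.87, −1.17 and −3.11, a mean of −1.72 ± 1.22 (SD, n = 3), and it was −0.85 at 1 µM. In testis 2 the MEHP signal of neither gene was detected. There, Itm2a and Itm2b had −0.25 and −0.18 with normexp, and −0.15 and −0.052 with loess alone. Their means at 10 µM were −0.95 and −0.30 with normexp, and −0.87 and −0.24 with loess alone. Itm2a was also below the brighter Itm2c probe on all 8 arrays, by 0.056 to 3.12. Itm2b and Itm2c did not keep an order, as Itm2b was the lower of the pair on 3 of 8 arrays and their mean difference at 10 µM was −0.26, less than the spread of the testis values, 0.015, −1.57 and 0.78. The differences with Itm2a follow from the way the family was chosen and were not tested.

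**Figure D3:**
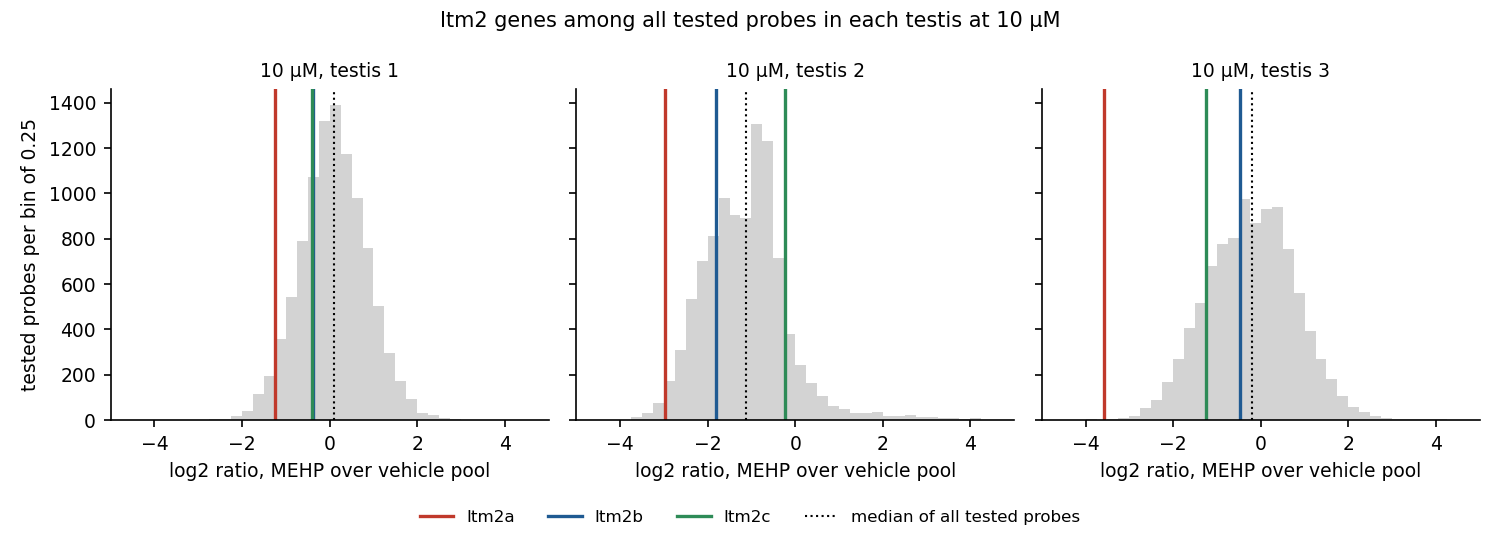
Number of tested probes (y axis, bins of 0.25) by log2 ratio of MEHP over the vehicle pool (x axis) in each testis at 10 µM, with coloured lines for the brightest probe of each Itm2 gene and a dotted line for the median of all tested probes. Itm2a lies at −1.26, −2.97 and −3.59, left of the other members in every testis, and the whole distribution of testis 2 is shifted to a median of −1.13.

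The genes whose ratios most resembled those of Itm2a over the 8 arrays were found by the Euclidean distance of their log2 ratios, among the brightest tested probes of 4713 other named genes. The 5 nearest were Eef1a1, a translation elongation factor (distance 1.01), Prdx4, a peroxiredoxin of the secretory pathway (1.47), Psmb1, a proteasome subunit (1.48), Atp5f1b, a subunit of mitochondrial ATP synthase (1.51), and Rpl5, a protein of the large ribosomal subunit (1.71). Eef1a1 and Rpl5 have near-identical copies in the genome, so their probes may read more than 1 transcript. Of all tested probes, 36.2% lay below 0 in all 3 testes at 10 µM. All 5 genes did, and also at 1 µM, which follows from their choice by these same ratios and is not a result about them. Their means at 10 µM ranged from −2.29 for Psmb1 to −2.48 for Prdx4, without testis 2 from −2.14 for Eef1a1 to −2.51 for Atp5f1b, and at 1 µM from −0.71 for Psmb1 to −1.12 for Atp5f1b. Eef1a1 had ratios of −0.83, −2.98 and −3.45 in testes 1 to 3. The vehicle signal of each was detected on all 8 arrays, the MEHP signal on 4 to 6. By the same measure Itm2b, at a distance of 5.16, was 1277th and Itm2c, at 5.33, was 1469th.

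**Figure D4:**
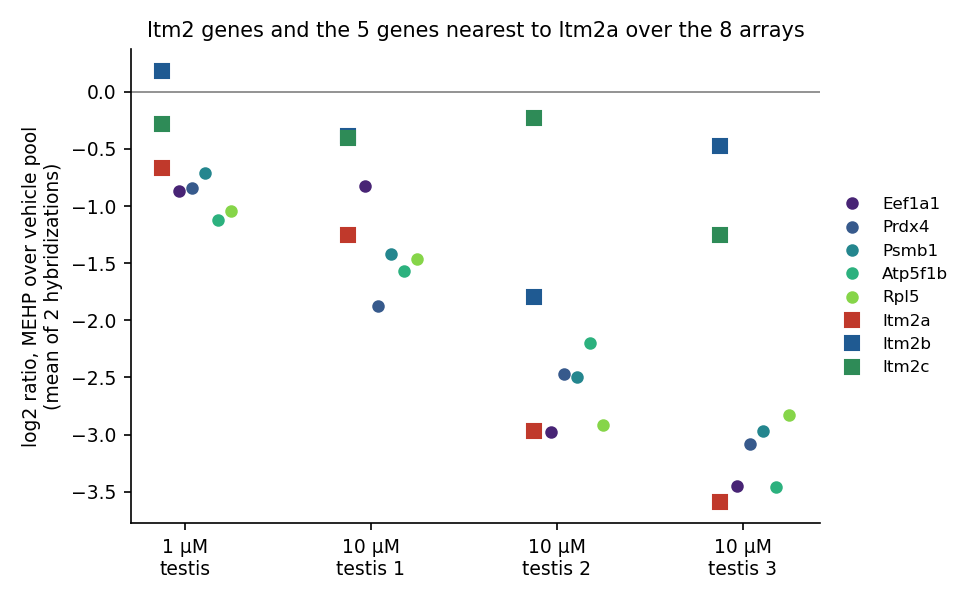
Log2 ratio of MEHP over the vehicle pool (y axis, mean of 2 hybridizations) in the 1 µM testis and the 3 testes at 10 µM (x axis) for the Itm2 genes (squares) and the 5 genes nearest to Itm2a (circles, shifted sideways). The circles lie near Itm2a because they were chosen by these ratios, between −2.20 and −2.98 in testis 2. Itm2b and Itm2c lie above them in all 4 testes.

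The proteases that cut ITM2 proteins were listed together with App, its relatives and its secretases. Of the 21 genes, 18 were on the array and 12 were tested at 10 µM. None of the 12 passed the limma test over all probes in either direction, and their median was −0.57, against −0.42 over all tested probes. Without testis 2 the median was −0.17, against −0.039 over all probes, and 1 of 12 was called lower, where 9.85% of all probes were called lower and 7.45% higher. That gene was Aph1b, a γ-secretase subunit, with −1.03, −1.39 and −1.49 by testis and a mean of −1.26 without testis 2 (limma adjusted p = 0.0297, and 0.184 with all 3 testes). Its MEHP signal was detected on 1 of the 6 arrays at 10 µM and its vehicle signal on 3. The 2 hybridizations of testis 1 gave −1.76 and −0.30. The related subunit Aph1a had −0.22, −2.13 and −0.54, a mean of −0.96, and −0.38 without testis 2.

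Furin, which cuts the Itm2b precursor, had a mean of 1.11 over values of −0.16, 2.76 and 0.72 by testis (limma adjusted p = 0.288), and of 0.28 without testis 2. Its hybridizations disagreed in testes 1 and 3, at 1.41 and −1.74 and at 1.93 and −0.48, and agreed only in testis 2, at 3.12 and 2.40. The proprotein convertase Pcsk6 had −0.45, −1.72 and −1.15 (limma adjusted p = 0.281), with a mean of −0.80 without testis 2. Its hybridizations differed in sign in testis 1, at −1.67 and 0.77, and in testis 3, at −2.52 and 0.23. The same held at 1 µM, at −0.56 and 0.93. Its MEHP signal was detected on 2 of the 6 arrays at 10 µM. App itself, named after its values were seen for its binding to Itm2b, had −0.0028, −1.95 and −0.80, a mean of −0.92 (limma adjusted p = 0.390), and −0.40 without testis 2. Adam10, the sheddase of Itm2b, likewise named afterwards, had a mean of −0.43, and 0.071 without testis 2.

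**Figure D5:**
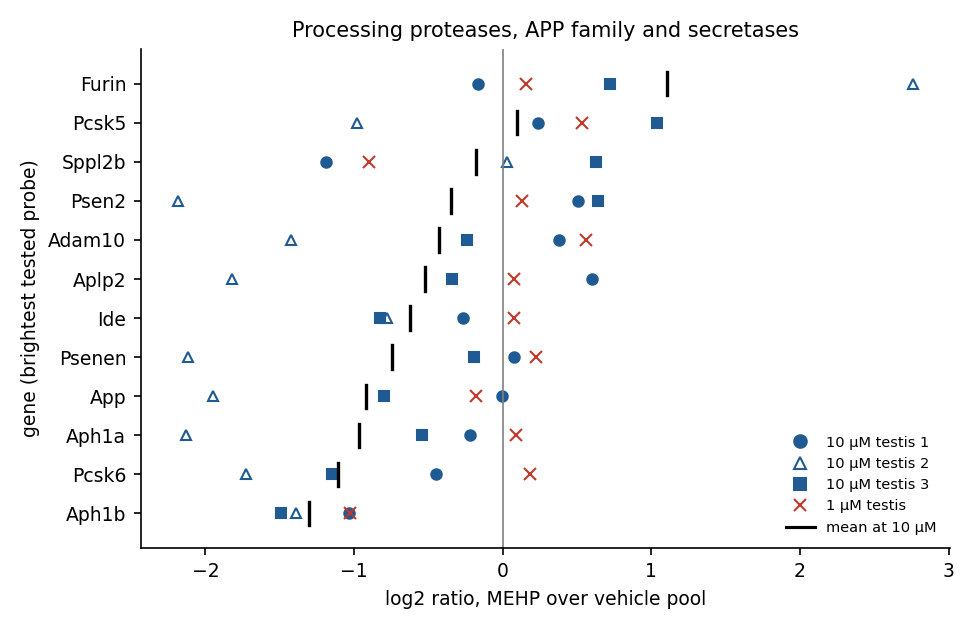
Log2 ratio of MEHP over the vehicle pool (x axis) for the 12 tested genes of the processing list (y axis, ordered by mean at 10 µM), with a symbol for each testis at 10 µM, crosses for the 1 µM testis and black lines for the mean at 10 µM. Testis 2 is the lowest of the 3 testes for 8 genes and the highest for Furin, at 2.76.

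Few genes of the BRICHOS domain or of the other settings in which Itm2a is known were detected. Of 7 BRICHOS genes outside the family, 5 were on the array and none was detected in either channel on any of the 8 arrays. Of 15 genes of cartilage, bone and skeletal muscle differentiation, 14 were on the array and 3 were detected in the vehicle pool on at least 1 array. The 1 tested at 10 µM was the matrix protein gene Spp1, detected in the pool on 5 of 8 arrays, with 0.72, −1.30 and −0.29 by testis (limma adjusted p = 0.843) and a mean of 0.21 without testis 2. The T cell markers Cd3e and Cd4 were not detected on any array.

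The cell type markers are given beside Itm2a because they were measured in the same RNA. Of 5 tested Leydig cell genes, 1 was called lower, Cyp17a1, the enzyme that leads from progestagens to androgens, with −2.22, −1.60 and −2.07 by testis (limma adjusted p = 0.0394), where 1.87% of all probes were called lower. This call was lost when a block was fitted for the slide or a random block for the testis and when arrays were centred, and the mean was −2.14 without testis 2. Insl3, a peptide hormone of Leydig cells, had −1.53, −2.23 and −1.58 (limma adjusted p = 0.0590), a mean of −1.55 without testis 2, and −1.81 at 1 µM. Cyp17a1, at −1.10 at 1 µM, and Insl3 thus lay below Itm2a in testis 1 and at 1 µM. Star and Scarb1 went the other way there. Star had 1.27 in testis 1 and 1.83 at 1 µM, but −1.08 and −1.86 in testes 2 and 3. Its mean at 10 µM was −0.56, and −0.30 without testis 2. Scarb1 had 1.46 in testis 1 and 1.05 at 1 µM, but −1.72 and −0.038 in testes 2 and 3. Its mean at 10 µM was −0.10, and 0.71 without testis 2. Hsd3b1 had 0.55 at 1 µM, and −0.33, −1.32 and −2.27 by testis at 10 µM. Its mean at 10 µM was −1.31, and −1.30 without testis 2. The summed signal of the tested Leydig genes had log2 ratios of −0.25, −1.67 and −1.33, and that of the 6 tested Sertoli genes had 0.053, −1.43 and −0.83. At 1 µM the Leydig sum was 0.23 and the Sertoli sum 0.0078. The summed germ cell, peritubular, endothelial and blood markers ranged from −0.16 to 0.96 in testis 1, −2.00 to −0.81 in testis 2 and −0.21 to 0.81 in testis 3. These sums rest on 2 germ cell, 2 peritubular and 2 blood genes, and the endothelial value on Kdr alone. Of the other marker lists none had a gene called at 10 µM, and without testis 2 the calls were 2 of 5 Leydig, 2 of 6 Sertoli and 1 of 2 peritubular genes, all lower, against 9.85% of all probes called lower. The germ cell gene Pou5f1, the endothelial genes Pecam1 and Cdh5 and the leukocyte gene Ptprc were not detected on any array. Other genes of these lists were detected in the pool. Of germ cell genes, Ddx4 was detected on 2 of 8 arrays, Dnd1 on 7 and Mael on 4. Endothelial Kdr was detected on 7, and Cd68 and Cd14 of the blood list on 3 each. The part of cell composition in the Itm2a ratio was not tested.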

How the data were processed

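RNA of MEHP-treated testes and of the vehicle pool was hybridized to 8 two-colour Agilent Whole Rat Genome arrays. The deposited scanner files come from Agilent Feature Extraction 9.1.1.1 per the file headers, which background-subtracted and dye-normalized each array. From them were taken the log10 ratio of red over green deposited by the authors, its error, and the deposited channel intensity values with their flags. Log10 ratios were converted to log2 and turned to MEHP over vehicle, with MEHP taken as green in first hybridizations and red in repeats. Over 4086 spots, the channel so taken as the pool correlated between arrays of different testes with r of 0.95 to 1.00, the other with 0.63 to 0.97. These arrays share the pool RNA, so no p is given.

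Control and outlier spots were left out, spots of a probe were averaged, then the 2 hybridizations of a testis. Probes well above background in a channel on at least 3 of 6 arrays at 10 µM (1 of 2 at 1 µM), with a value on every array, were tested: 9913 and 13174. The mean of 3 testes was tested against 0 with limma 3.58.1 in R 4.3.3 (lmFit, eBayes, two-sided, Benjamini-Hochberg over all tested probes), after tests on simulated data. The brightest probe stood for a gene. Array gene names were updated through RefSeq accessions (GRCr8), which matched 10735 of 41012 probes. Members and lists were chosen with earlier results of these data known. The named genes were the family, the 5 nearest to Itm2a and, per list, called genes or else those of the largest absolute mean, up to 4. The authors' own lists of significant genes hold their comparisons and were not used. The number of arrays limits the precision.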

Additional observations from a re-analysis of the deposited data

Results flagged for a closer look

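The Itm2b ratios lay on opposite sides of 0 at the 2 doses. Both hybridizations of the 1 µM testis lay above 0, with a mean log2 ratio of 0.18 (0.041 and 0.33, with scanner errors of 0.17 and 0.20). All 3 testes at 10 µM lay below 0, with a mean of −0.89. With normexp the means were 0.022 at 1 µM and −0.30 at 10 µM, and with loess alone 0.085 and −0.24. Of the 9913 tested probes, 36.2% lay below 0 in all 3 testes at 10 µM. In the deposited ratios the difference, 10 µM minus 1 µM, was −1.07. It was −0.61 without testis 2, whose MEHP signals for this probe were not well above background, −0.66 on the slide that holds testis 3 and the 1 µM testis, and −0.57 after centring of the arrays on their medians. The difference was not tested, and both doses share the same vehicle pool.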

How the results depend on the processing

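The 222 calls at 10 µM fell to 0 with normexp background correction and loess, with loess alone, with first hybridizations alone, with MEHP on Cy3 on all arrays as the labels write it, without a filter on dim probes, with both channels well above background on every array, with the testis as a random block and with the slide as a block. Under these settings limma gave 12 to 3226 probes at an unadjusted p under 0.05, the lowest where only 51 probes were tested. The count was 106 with centred arrays and 640, all lower, with a trend in eBayes. Leaving out a testis gave 0 to 1715, the highest without testis 2 and 0 without testis 1 or testis 3 (1360 and 491 at an unadjusted p under 0.05). The 1 listed gene called went to 0 under the same 8 settings, with centred arrays and with repeats alone, to 3 with the trend and to 0 to 6 without a testis. The 924 probes changed at 1 µM became 66 with normexp, 104 with loess alone, 2541 with MEHP on Cy3 throughout, 307 with both channels above background and 226 at a 2-fold limit.

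The mean of Itm2a at 10 µM was −0.95 with normexp, −0.87 with loess alone and −0.040 with MEHP on Cy3 throughout, and stayed between −3.28 and −2.11 without a testis. At 1 µM it was −0.31 with normexp and turned to 0.066 with MEHP on Cy3 throughout. That setting also turned Itm2b at 1 µM to −0.14 and Itm2c at 10 µM to 0.13. Itm2b at 1 µM was 0.022 with normexp, 0.041 from the first hybridization and 0.33 from the repeat. At 10 µM, Itm2b was −0.30 with normexp and −0.24 with loess alone, and Itm2c −0.18 and −0.13. Itm2c at 10 µM was −1.26 on the slide of testis 3, a comparison added after seeing the data. Without a testis, Itm2b at 10 µM ranged from −1.14 to −0.43 and Itm2c from −0.83 to −0.32. Itm2a and Itm2b at 10 µM stayed below 0 under every alternative run. With MEHP on Cy3 throughout, the sign of each repeat was reversed before averaging, so hybridizations of a testis that agree cancel by arithmetic. The cause of the other changes was not tested. No paired analysis was possible because the 1 µM group holds 1 testis. Within-slide values at 10 µM come from 2 testes on one slide and 1 on the other.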
